A study of Arabidopsis thaliana with 2 samples.

Results

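The core PLT targets are 197 Arabidopsis genes that the study selected on several grounds. They lay near binding sites shared between PLT datasets, rose in seedlings that overexpress a PLT gene, and were expressed in root meristem, shoot stem cells and quiescent centre alike. One of those binding datasets is the root PLT3 peak list described here, so the genes were chosen partly by the same peaks, and every value below is a description without a test. All 197 loci were found in the TAIR10.1 annotation and all are protein-coding, out of 27444 protein-coding genes and 37899 nuclear genes of any kind. A gene was counted as having a peak when the centre of a nuclear peak lay within 4 kb of its transcription start site (TSS), taken as the 5′ end of the annotated gene. By this rule 72 core genes had a peak and 125 had none.

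Binding was measured by DAP-seq, in which a tagged transcription factor made outside the plant is mixed with sheared DNA stripped of chromatin, and the fragments it holds are read by sequencing. 3xFLAG-PLT3 was tested in 1 library and the negative control 3xFLAG-EGFP, a fluorescent protein, in 1 other library, both on DNA of whole Col-0 roots at 5 dpg with 200 ng of DNA and 20 PCR cycles. The EGFP library served only as the control of the peak caller, there are no replicates, and the depth is unknown because the peak list holds no read counts. The list holds 1996 nuclear peaks with a median fold enrichment of 4.75 (range 2.52 to 24.5), where fold enrichment is the linear ratio of PLT3 signal to local background at the peak's summit.

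PLETHORA (PLT) proteins are transcription factors with a pair of AP2 DNA-binding domains that together recognise a long stretch of DNA. They are most abundant in the stem cell niche of the root tip, where high levels keep cells stem-like and lower levels further up permit division and then differentiation. Related members act in the shoot apex and in the embryo, and loss of several members together ends root growth. Because the DNA in the assay carried no chromatin, a peak shows where PLT3 can bind and says nothing of whether the site is accessible in a meristem cell.

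A motif of 16 positions was learnt from peaks that lie near no core gene, on chromosomes 1, 3 and 5, and had the consensus CCTCGNNAANCGNGNN, in which N marks a position where no base made up most of the training sites. Of the 76 peaks at core genes, 56 held a site for this motif in the 100 bp around the summit. The sequences that follow are the sites in the strongest peak of the member with the largest fold enrichment and a site in each function group, together with those of HTA8 and PRL, which the study names among its targets. They are shown to let the bound DNA of individual core genes be compared position by position. Capitals mark the 16 positions of the site and lower case the neighbouring 7 bases on each side, read 5′ to 3′ on the strand that carries the motif in TAIR10.1.
VLN4: ttgtttgTCTGGGGAATTGTGAAatttaca
PIN4: gagagagCCTCGGAGATTGGGCTatttatt
ZIM: tagttgaCATCGAGAAGAGCGATtacagag
SDP1: atttttgCATAGGGAATCGCAACgagataa
CHIP: atcaaaaTCTCGGAAAACACAAAaccctaa
RNR2A: ggtgttgCCTTGAAAATCACGTCggaagat
PRL: agggattTCTCGAGAATTTCGCCgacgcta
AT1G64450: ggattttTCTGGGAATCCGGGTCctccgag
LSM1A: ttcttctCCTCGATTACTGAGCTtaagaac
NTP6: acgcgtaCTTCGAAAATTGCTAAtatgaat
RRT1: tgaggggTTTTGGGAACTGTGAGaatcttc
OEP16-1: cgagcctCATCGTTATTCGAACCcgtaatc
HTA8: tttctcgCCGCGAATTTCGAATAggttctt

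Counted from 1 at the 5′ end of the capitals, position 5 was G in all 55 sites found in the strongest peaks of core genes. Position 3 was T in 51 of the 55 sites, position 12 was G in 49 and position 8 was A in 46. Sites were called by their score on the learnt matrix, which already favours these bases. The counts therefore follow in part from how sites were called. The other positions varied more, at the start and in the middle of the site as well as at its end. Position 14 was G in 38 sites, position 1 was C in 35 and position 10 was T in 22. HTA8 is among the 4 sites without T at position 3. The scores of the HTA8 site (8.89) and the OEP16-1 site (9.04) lay near the limit, since EN7 at 8.71 was called without a site. The site lay on the strand of its gene in 29 of the 55 genes and on the opposite strand in 26, and its middle was a median of 5.5 bp from the summit.

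The printed sites lie in peaks at different parts of their genes. The VLN4 run lies at chr4:14754097-14754126 on the plus strand, in a peak centred on an intron of the gene (chr4:14753232-14760236). That of PIN4 lies at chr2:180419-180448 on the minus strand, in a peak centred on its 3′ UTR. Those of RNR2A (chr3:8460047-8460076, plus), SDP1 (chr5:1089788-1089817, minus), LSM1A (chr1:6608177-6608206, minus) and ZIM (chr4:12645655-12645684, minus) come from peaks centred on the 5′ UTR of the gene. HTA8 (chr2:16220820-16220849, minus) and RRT1 (chr5:5136990-5137019, minus) have theirs in such peaks as well. The runs of PRL (chr4:901615-901644, plus) and AT1G64450 (chr1:23942206-23942235, minus) come from peaks centred on a coding exon. Those of NTP6 (chr3:19145145-19145174, minus) and CHIP (chr3:2360130-2360159, plus) come from peaks in an intron. The run of OEP16-1 (chr2:12416752-12416781, plus) is the only printed one from a peak upstream of its gene.

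The share of core genes with a peak was 36.5% (95% Wilson interval 30.1 to 43.5%, counting error only). Among the 137 PLT target genes outside the core, which met the binding and overexpression criteria but not expression in all 3 meristem samples, 56 genes or 40.9% (33.0 to 49.2%) had one. The background is 10.7% of all protein-coding genes (2930 of 27444) and 11.3% of all annotated nuclear genes. Since both target lists were built partly from these peaks, nothing is read from their excess over the background. The intervals of the core genes and of the targets outside the core overlap.

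Core peaks were of ordinary strength for this library. Taking the strongest peak of each gene, the 72 core genes had a median fold enrichment of 4.77 (quartiles 4.02 and 6.45, range 2.77 to 15.8), against 4.84 for the 56 targets outside the core and 4.75 for the 2802 other protein-coding genes with a peak. Of the 72 genes, 5 held 1 of the 100 strongest among the 1996 nuclear peaks, and 37 held a peak above the median of all nuclear peaks. The summit windows of core genes had a median GC content of 40.5%, against 41.5% at targets outside the core and 44% at other protein-coding genes.

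**Figure D1:**
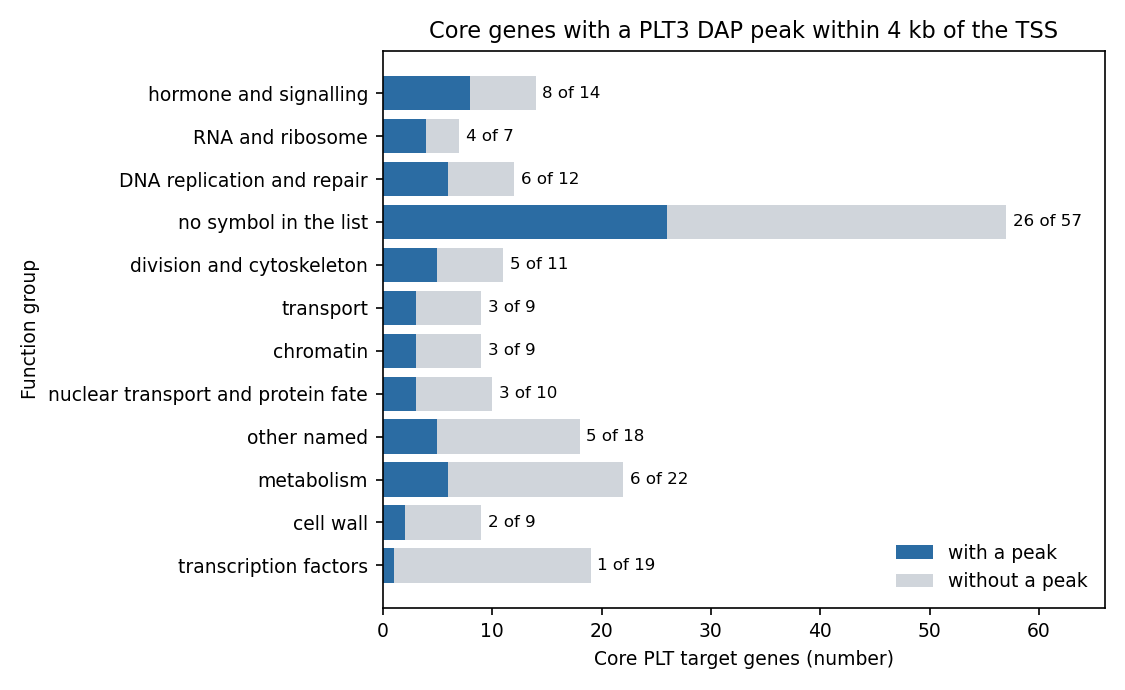
Number of core PLT target genes with (blue) and without (grey) a PLT3 DAP peak centre within 4 kb of the TSS, by function group, ordered by the share with a peak. Hormone and signalling genes had a peak in 8 of 14 cases, and transcription factors in 1 of 19.

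The 12 function groups, set from gene names and general knowledge, differed in how many of their members had a peak. The hormone and signalling group and the RNA and ribosome group stood highest, with 8 of 14 and 4 of 7 genes (57.1% each). DNA replication and repair followed with 6 of 12, genes without a symbol in the list with 26 of 57, and division and cytoskeleton with 5 of 11. Chromatin and transport each had 3 of 9, nuclear transport and protein fate 3 of 10, other named genes 5 of 18 and metabolism 6 of 22. Cell wall genes had 2 of 9. Transcription factors stood last with 1 of 19 (5.26%), against 71 of 178 (39.9%) in all other groups and the background of 10.7% of all protein-coding genes. The share of transcription factors depends on how that group was drawn. Some proteins of zinc finger or DNA-binding families stand in other groups, with a peak (C3H12, TRFL1) or without one (AHL8). Most of the groups hold few genes, and none of these differences was tested.

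Among the hormone and signalling genes, the strongest peak was that of PIN4, an auxin efflux carrier of the root tip. It had a fold enrichment of 8.04 and lay at +3393 bp from the TSS in the 3′ UTR, where positive distances are downstream. A lncRNA gene has its TSS nearer to this peak, so PIN4 is the nearest coding gene but not the nearest gene. EIN4, an ethylene receptor, had a peak of 7.66 in its 5′ UTR at +496.5 bp, and JASSY, which exports a jasmonate precursor from plastids, had a peak of 5.72 in its 5′ UTR at +233 bp. Neither held a motif site at the summit, unlike the other 6 genes of the group. SFC, an ARF GTPase-activating protein needed for vein patterning, had a fold enrichment of 5.20 at +307 bp. TPST, the enzyme that sulfates the root meristem growth factor peptides, had 3.98 at +278 bp, and both of these peaks lay in the 5′ UTR.

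The remaining hormone and signalling peaks had fold enrichments below those of the genes above. SUR1, an enzyme of glucosinolate synthesis whose mutants hold excess auxin, had its peak at −2028.5 bp with a fold enrichment of 3.38. SAUR59, of the auxin-responsive SAUR family, had one of 3.78 at −2149 bp. These are the 2 most distant upstream peaks of the core genes. SRF7, a receptor-like kinase of the STRUBBELIG family, had a fold enrichment of 3.66 in a coding exon at +2212.5 bp. The auxin synthesis gene TAA1 had no peak within range, and its closest lay at −27294.5 bp. The gene annotated as histidine phosphotransfer protein 6, AT1G80100, has no symbol in the list and is counted with the genes without a symbol. Known as AHP6, it dampens cytokinin signalling, and it had a peak of 4.06 with a motif site at −723.5 bp.

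Of the 19 transcription factors, which were taken by symbol, the one with a peak was ZIM, a GATA-type zinc finger protein with a TIFY domain. AT1G27050, annotated as a homeobox leucine zipper protein, also had a peak, as did AT4G39790, annotated as a putative bZIP factor (DUF630 and DUF632). AT2G38090, annotated as a duplicated homeodomain-like protein, had none, and its closest lay at +10452 bp. These genes carry no symbol and are counted with the genes without one. The fold enrichment of ZIM, 3.57, was below the median of all nuclear peaks, and its peak lay in the 5′ UTR at +159 bp with a motif site. The other 18 transcription factors had their closest peak a median of 27035 bp away, against 24030.5 bp for the 107 genes without a peak in all other groups. MP, the auxin response factor that initiates the embryonic body axis, had its closest peak at +5282 bp. SCR, which patterns the ground tissue and specifies the quiescent centre, had it at +14596.5 bp, and PHB, a class III homeodomain-leucine zipper factor, at −60682.5 bp. The boundary regulator HAN and the cytokinin response factor CRF3 came closest, at −4611.5 bp and −4490.5 bp, followed by MP. CPC, which promotes root hair fate, had its closest peak at +23247.5 bp and the growth-regulating factor GRF2 at −61760.5 bp. A gene without a peak here had no binding detectable at this unknown depth, and its place in the list can rest on other PLT datasets that were not analysed here.

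All 6 DNA replication and repair genes with a peak were bound downstream of the TSS, and the strongest peak held a site in 5 of the 6. RNR2A, a small subunit of ribonucleotide reductase, which makes the building blocks of DNA, had the strongest with 9.15 in the 5′ UTR at +225 bp. The TSS of a neighbouring gene, AT3G23570, lies nearer to this peak. PDS5E, of a family of cohesin cofactors, had a fold enrichment of 6.17 in an intron at +506.5 bp. PRL, the MCM7 subunit of the replicative helicase, had 6.05 in a coding exon at +1011.5 bp, with a tRNA gene nearer to the peak. TRFL1, a protein related to telomere-repeat binding factors, had 4.17 in an intron at +646.5 bp. ZDP, a DNA 3′-phosphoesterase that acts in repair, had 3.74 at +84.5 bp and no site. The replication genes RFC2 and PSF2, which encode a clamp loader subunit and a GINS subunit, had no peak, with the closest at +21156.5 bp for RFC2 and +19469 bp for PSF2.

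Among the chromatin genes, NRP2, a histone chaperone, had a peak of 6.89 in an intron at +327 bp, without a motif site. HTA8, which encodes the histone variant H2A.Z, had a fold enrichment of 5.05 in its 5′ UTR at +79 bp. CHR17, an ISWI-type chromatin remodeller, had 4.13 at −78.5 bp, just upstream of the TSS. HTA8 and CHR17 both held a site, with a score near the limit for HTA8 (8.89) and of 14.1 for CHR17. The histone gene HTB2 and the remodeller DDM1, needed for DNA methylation, had no peak in range, and their closest peaks lay at +80966 bp for HTB2 and −31429 bp for DDM1.

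The strongest peak of all 5 bound division and cytoskeleton genes lay downstream of the TSS. VLN4, a villin that bundles actin filaments, had the largest fold enrichment of any core gene with a symbol, 12.2, in an intron at +884.5 bp. TRM20, of the TON1 recruiting motif family, had 6.30 in an intron at +317.5 bp without a site. The myosin gene ATM2 had 5.50 in an intron at +535.5 bp. TPXL3, a microtubule protein related to TPX2, had 3.81 in its 5′ UTR at +127.5 bp. The D-type cyclin gene CYCD5;1, the cytokinesis kinesin HIK and the CDK inhibitor ICK3 had no peak. The closest peak lay at −23601.5 bp for CYCD5;1, at +24531.5 bp for HIK and at −28180.5 bp for ICK3.

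All 4 RNA and ribosome genes with a peak were bound downstream with a site on the strand opposite to the gene. LSM1A, a subunit of the LSM complex of mRNA decay, had 8.99 in its 5′ UTR at +111.5 bp. NRPA1, the largest subunit of RNA polymerase I, had 5.82 in an intron at +3299 bp, with an snRNA gene nearer to the peak. EDA7, named for arrest of the embryo sac, had 4.12 in an intron at +785.5 bp. ACYR1, an RNA cytidine acetyltransferase, had 4.04 in an intron at +1822 bp. Of the genes for nuclear transport and protein fate, all 3 with a peak were bound in an intron with a site. CHIP, a ubiquitin ligase that works with chaperones, had 5.15 at +357.5 bp, and the rhomboid-like protein RBL15 had 4.52 at +1164.5 bp. CR88, the plastid Hsp90, had 3.49 at +2412 bp.

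The metabolism group held 2 of the 10 strongest core genes. SDP1, the main lipase of stored triacylglycerol, had a fold enrichment of 9.65 in its 5′ UTR at +471 bp. HMG2, an HMG-CoA reductase of sterol and isoprenoid synthesis, had 9.48 in a coding exon at +672.5 bp, without a motif site. PPa2, a pyrophosphatase, had 6.16 at +3143.5 bp, beyond its own 3′ end and inside the next gene, AT2G18220. ASE1, which starts purine synthesis, had 4.76 in a coding exon at +458.5 bp. The glucan phosphorylase gene PHS2 had 3.92 at −281 bp, and PMSR2, which repairs oxidised methionine in peptides, had 3.90 in a coding exon at +401 bp. Other than HMG2, all had a site.

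In the cell wall group, RRT1, a rhamnosyltransferase of pectin synthesis, had 7.39 in its 5′ UTR at +696.5 bp, with the TSS of AT5G15745 nearer to the peak. GAE3, an epimerase that makes a pectin precursor, had 3.27 at −238.5 bp without a site. In the transport group, OEP16-1, a channel of the plastid outer envelope, had 6.23 at −1172 bp, inside the neighbouring gene CXIP4. SHS1, of the mitochondrial carrier family, had 5.65 at +2808.5 bp, downstream of its own end and inside CESA1, a cellulose synthase gene. PUMP1, an uncoupling protein of mitochondria, had 4.73 in a coding exon at +226.5 bp.

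Of the other named genes, C3H12, a CCCH zinc finger protein, had 11.9 in its 5′ UTR at +417.5 bp and no site. The nucleotidyltransferase gene NTP6 had peaks of 7.54 at +1800 bp, in an intron, and 4.15 at +477.5 bp, in the 5′ UTR. The tubby-like genes TLP8 and TLP6 had 5.14 at −59 bp for TLP8 and 4.56 at +354.5 bp for TLP6. EN7 had 4.06 at +2038.5 bp, beyond its end and nearer to the TSS of sks10.

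The 26 bound genes without a symbol held both ends of the range. AT1G64450, annotated as a glycine-rich protein, had the largest fold enrichment of all core genes, 15.8, at +727 bp in a coding exon and at rank 14 of all nuclear peaks. The same position lies inside a second coding gene, AT1G64455, whose TSS is nearer. AT4G27380, an uncharacterised protein, had 12.1 in a coding exon at +1020 bp without a site, and AT3G04350 had 11.2 in its 5′ UTR at +267 bp with a site. AT3G03790, annotated with ankyrin repeats, had 9.23 in an intron at +698 bp, and AT2G21180 had 8.80 in its 3′ UTR at +773.5 bp. The TSS of another coding gene, TIM, lies nearer to the AT2G21180 peak. AT4G15770, annotated as an RNA-binding protein, had 7.91 and AT1G27050 had 7.69, both in a coding exon. The weakest core peak was that of AT4G39790, 2.77 at −656.5 bp. The other 18 genes, including AT1G80100, lay between 3.14 and 5.59.

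**Figure D2:**
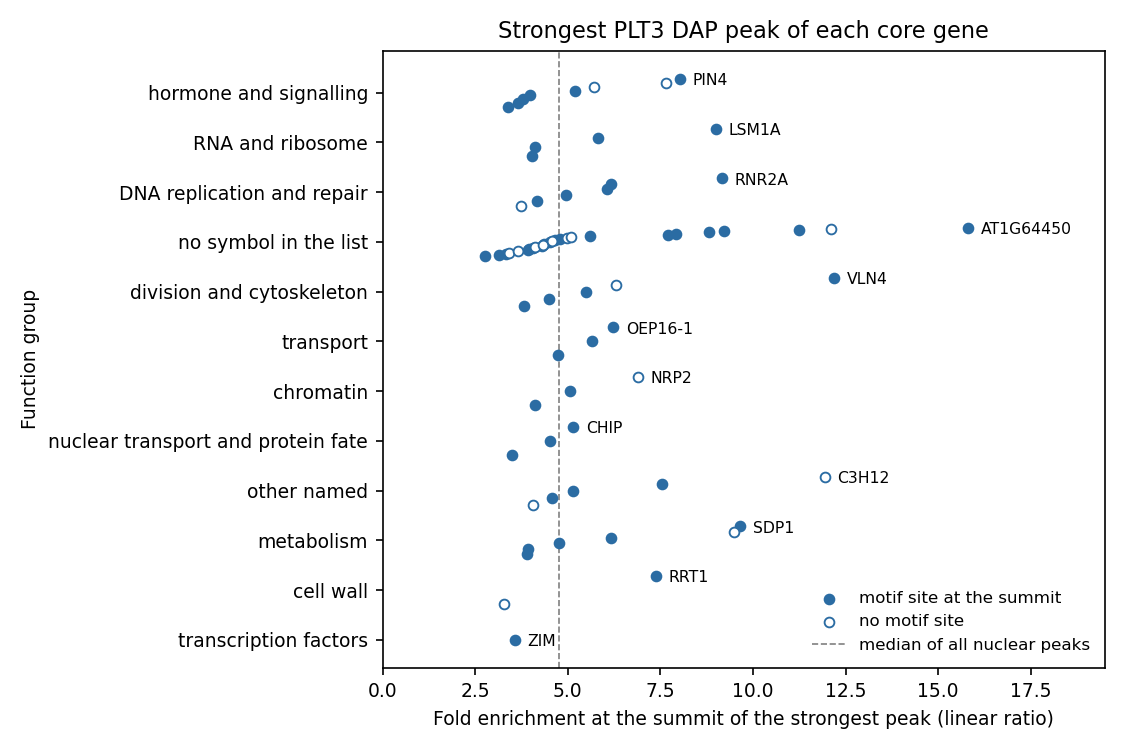
Fold enrichment at the summit of the strongest PLT3 DAP peak of each of the 72 core genes with a peak, by function group. Filled points have a motif site at the summit (55 genes), open points have none (17 genes), the dashed line is the median of all nuclear peaks (4.75), and the values lie between 2.77 for AT4G39790 and 15.8 for AT1G64450.

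Peaks of core genes lay mostly downstream of the TSS. The strongest peak was downstream in 60 of the 72 genes and upstream in 12, with a median signed distance of +395 bp. In 30 genes it lay in the first 500 bp after the TSS, against 5 genes with it in the 500 bp before. Within 1 kb on either side were 49 of the 72. The 10 genes with the largest fold enrichment, at 8.99 or more, were all bound downstream.

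**Figure D3:**
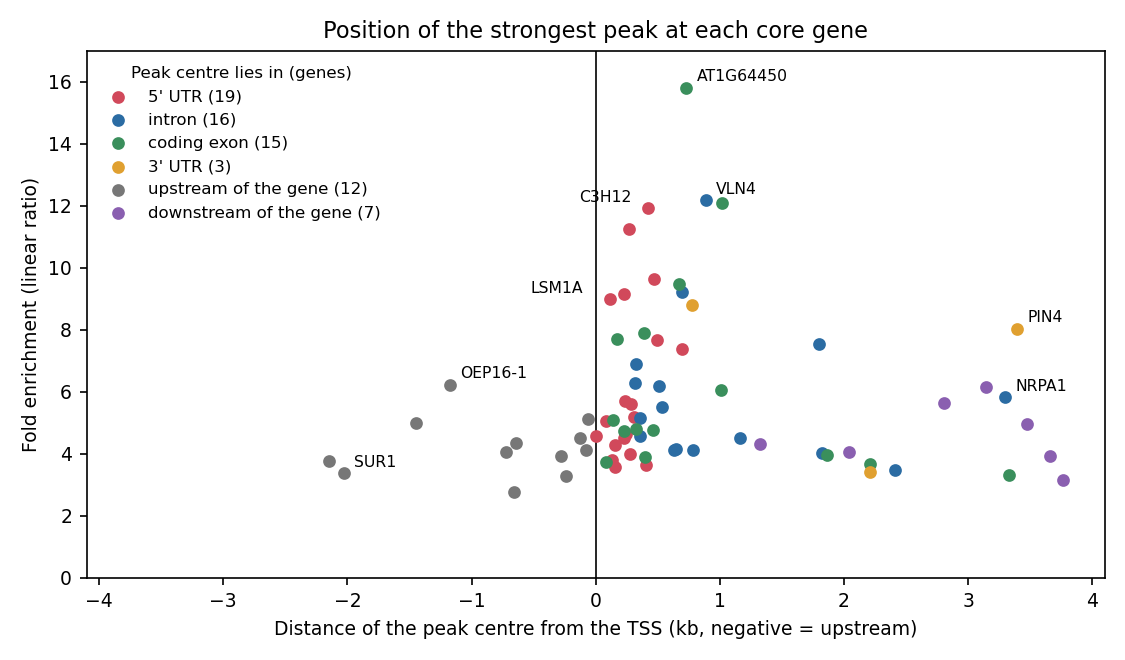
Position of the strongest peak of each of the 72 core genes. The horizontal axis is the distance of the peak centre from the TSS in kb, negative upstream, the vertical axis is the fold enrichment, and colours give the annotated part of the gene at the centre. The 12 upstream peaks reach at most 6.23 (OEP16-1), and all genes of 8.99 and above lie downstream.

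By annotated part, the centre of the strongest peak fell in the 5′ UTR of 19 genes (median fold enrichment 5.20), in an intron of 16 (5.33) and in a coding exon of 15 (4.78). It fell in the 3′ UTR of 3 genes, so that 53 of the 72 were bound inside the gene body. In 12 genes the centre lay upstream of the gene (median 4.09) and in 7 beyond its 3′ end (median 4.33). Upstream peaks were thus among the weaker ones, and 10 of the 12 held a motif site.

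Counting every peak in range, 60 core genes (30.5%) had a peak downstream, against 5.99% of all protein-coding genes, and 13 (6.60%) had a peak upstream, against 5.05%. Among targets outside the core, 40 of 137 (29.2%) had a downstream peak and 18 (13.1%) an upstream peak. The first 500 bp after the TSS held a peak in 33 core genes (16.8%), in 22 targets outside the core (16.1%) and in 1.26% of all protein-coding genes. A 5′ UTR held a peak in 22 core genes (11.2%) and 12 targets outside the core (8.76%), against 0.368% of all protein-coding genes. For introns the numbers were 16 core genes (8.12%) and 5 targets outside the core (3.65%), against 0.565%. For coding exons they were 15 core genes (7.61%) and 20 targets outside the core (14.6%), against 2.57%. Between core genes and targets outside the core, the share was higher in the core for introns and lower for coding exons and upstream peaks, on small counts whose 95% intervals overlap.

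A gene can lie within 4 kb of a peak that is nearer to another gene. When genes were kept only where a peak had its nearest coding TSS, 51 of 62 core genes (82.3%, 71.0 to 89.8%) had it downstream, against 36 of 52 targets outside the core (69.2%) and 876 of 1260 other protein-coding genes (69.5%, 66.9 to 72.0%). In the first 500 bp after the TSS lay the peak of 30 core genes (48.4%, 36.4 to 60.6%), of 22 targets outside the core (42.3%) and of 276 other genes (21.9%, 19.7 to 24.3%). Both target lists thus had a larger share of their peaks close behind the TSS than other bound genes had, and the part of the list's construction in this was not tested.

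**Figure D4:**
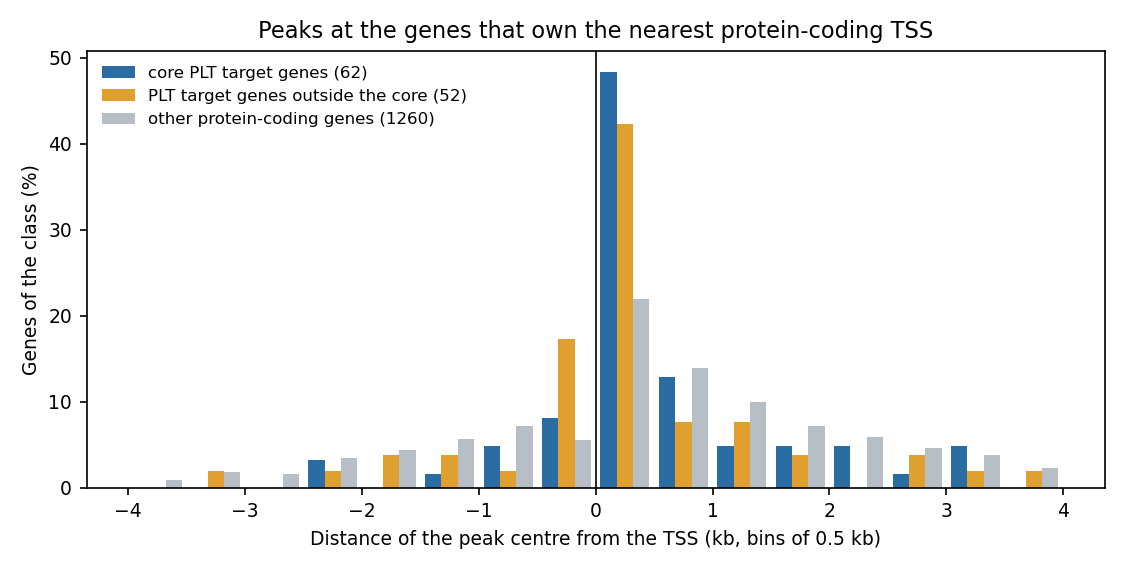
Distance of the peak centre from the TSS, in bins of 0.5 kb, for genes that own the nearest protein-coding TSS of a peak, as a percentage of the genes in each class. The bin just downstream of the TSS holds 48.4% of the 62 core genes (blue), 42.3% of the 52 targets outside the core (orange) and 21.9% of the 1260 other protein-coding genes (grey).

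Of the 72 core genes, 57 own the nearest annotated TSS of their strongest peak and 15 do not. For 10 of the 15 the nearest TSS is that of another coding gene, and for the other 5 (PIN4, SRF7, NRPA1, PRL and AT3G63240) that of a non-coding gene. Among coding genes alone, 61 of the 72 own the nearest TSS, and PRL is not among them. Over all peaks in range, 58 core genes (29.4%) and 50 targets outside the core (36.5%) own the nearest TSS of a peak, against 4.2% of all protein-coding genes. No peak was shared by 2 core genes. A pair of peaks was found at 4 core genes, NTP6 among them. NSE3, a subunit of the SMC5/6 complex of DNA repair, had 4.96 at +3470 bp, beyond its end, and 4.56 at +86.5 bp. The farther peak of NSE3 lies inside the coding gene APRL4, whose TSS is nearer to it. That peak held a motif site, and the one at +86.5 bp, in the 5′ UTR of NSE3, did not. AT1G63660, annotated as a GMP synthase, had 3.95 at +1865 bp and 3.76 at +176.5 bp.

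The limit of 4 kb cuts a continuous spread of distances. Just inside it lay NRPA1 (+3299 bp), AT5G60210 (+3326.5 bp), PIN4 (+3393 bp), NSE3 (+3470 bp), AT5G57230 (+3660 bp) and AT4G23760 (+3766.5 bp), all downstream. Just outside lay SAG20 (−4238 bp), XTH9 (−4342.5 bp), NUP1 (+4368 bp), CRF3 (−4490.5 bp), HAN (−4611.5 bp) and AHL8 (+4650.5 bp). Of the 125 genes without a peak in range, 26 had their closest within 10 kb, and the median distance was 24137.5 bp.

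The learnt motif was found at the summit of 56 of the 76 core peaks (73.7%, 62.8 to 82.3%), and at 387 of 641 peaks near no core gene on chromosomes 2 and 4, which had not been used for learning (60.4%, 56.5 to 64.1%). In windows of the same length 500 bp downstream of the summit, 3 core peaks (3.95%) and 35 of these other peaks (5.46%) held a site. In windows 500 bp upstream none of the 76 core peaks did (upper Wilson bound 4.81%), against 29 other peaks (4.52%). Core peaks thus held the motif at their summits more often than in their flanks. Their summit share was above that of the other peaks, with overlapping intervals, and the difference was not tested. Among the strongest peaks of each gene, 76.4% of 72 held a site at core genes and 61.1% of 54 at targets outside the core. At other protein-coding genes the share was 63.2% of 1337 peaks. The classes other than the core include peaks used for learning. Overlap between PLT datasets was a criterion for both target lists, and its part in these shares was not tested.

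**Figure D5:**
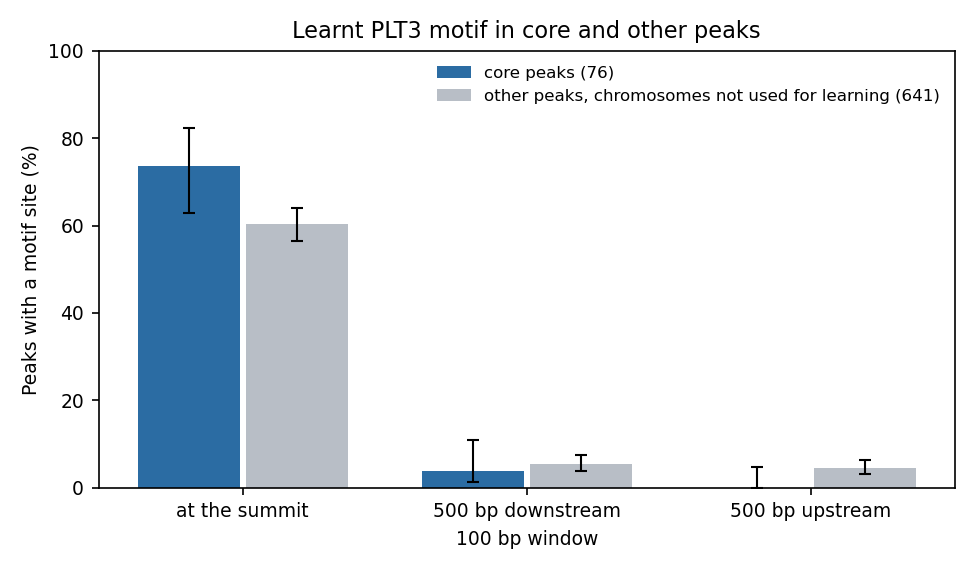
Percentage of peaks with a site for the learnt motif in 100 bp windows at the summit and 500 bp on either side, for the 76 core peaks (blue) and 641 other peaks on chromosomes not used for learning (grey). Bars start at 0, and error bars are 95% Wilson intervals. At the summit the shares are 73.7% of core peaks and 60.4% of other peaks.

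Core peaks with and without a site were close in median strength. The 55 genes with a site in their strongest peak had a median fold enrichment of 4.76, and the 17 without one had 4.98. Of the 10 strongest core genes 7 held a site, and AT4G27380, C3H12 and HMG2 did not. By part of the gene, sites were present in 14 of 19 peaks in a 5′ UTR, 13 of 16 in an intron and 11 of 15 in a coding exon.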

How the data were processed

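Per the submitters' notes and methods, adapters were trimmed by the authors (fastp 0.23.2) and reads aligned to TAIR10 (BWA-MEM 0.7.17). Secondary, unmapped, duplicate and low-quality alignments (mapping quality below 30) were dropped using SAMtools 1.15 and Sambamba. MACS3 3.0.0a7 then called PLT3 peaks over the 3xFLAG-EGFP control, with a q-value limit of 0.05. Removal of poorly mapping reads lowers signal in repeated sequence. Each deposited peak carries a linear ratio (fold enrichment at its summit), −log10 of the p-value and q-value, and the summit position. The deposited integer score, a rounded form of the −log10 q-value, was not used. Depth per library is not given by these columns.

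Genes, features and sequences were taken from the RefSeq annotation of TAIR10.1, with 1-based positions, and the nuclear peaks were placed on its 5 chromosomes. The core list, the list of targets outside it and the function groups came from the study's gene list and general knowledge, and members and lists were chosen with earlier results of these data known. Every member with a peak could be named. Most of those without a symbol were summarised by their range, and the values of 1 member with a symbol are not reported here. Members without a peak were named where the study names them, where they are meristem regulators, or where their closest peak lay just outside 4 kb. PSF2, HIK, ICK3, CPC and AT2G38090 fall outside this rule and were named after their values were seen.

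The motif matrix (16 positions, both strands) was learnt by expectation maximisation on 100 bp summit windows of 1279 peaks near no core gene on chromosomes 1, 3 and 5. A site scored above the value passed by 5% of windows 500 bp away. Shares have 95% Wilson intervals, which cover counting error only. Alternatives were q-value thresholds of 0.01 and 1e-05, ranges of 2 kb and 1 kb, summits, the nearest gene only, coding genes only as the nearest, listed transcript starts, windows of 60 and 200 bp, the middle of the peak, a threshold passed by 1% of flanks and learning on chromosomes 2 and 4. The procedure was tested on simulated data. Analyses used Python 3.11.15, numpy 2.4.6, pandas 2.3.3, scipy 1.17.1 and matplotlib 3.10.9.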

Additional observations from a re-analysis of the deposited data

How the results depend on the processing

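The counts of core genes, their median fold enrichment, the downstream count, the nearest-gene count and the motif share were recomputed in 22 combinations of a value and a setting. Of these, 18 stayed within 1.5 times the reported count, 1 SD of the fold enrichments or the interval of the share, and 4 moved further. At a q-value of at most 1e-05 the core genes with a peak fell to 34, of which 32 had it downstream of the TSS. A stricter limit on the same peak list can only keep some of the 72. The median fold enrichment of these 34 was 7.14, against 4.77 for the 72, which stayed within 1 SD and follows in part from the stricter limit. The motif share of core peaks was 32.9% with the threshold passed by 1% of flanking windows, where 0 core flanks held a site, and 43.4% with windows moved to the peak's middle. A range of 2 kb left 59 core genes, a range of 1 kb left 52, and counting only the gene with the nearest TSS left 58. With the start of the listed transcript model, which differs from the gene's start in 27 genes, 72 genes had a peak and 59 had it downstream. No paired analysis was possible because each protein has only 1 library. The absence of replicates and the unknown depth limit all values, and a gene without a peak can fall below the detection limit.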
